A study of Mus musculus with 10 samples.

Results

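The 10 genes described here are homeostatic microglial signature genes, that is, genes commonly used to tell resting brain microglia from other macrophages. They were Tmem119, Fcrls, Selplg and Slc2a5 (cell surface), Sparc, Olfml3 and Rnase4 (secreted), Golm1 (Golgi), and Sgk1 and Crybb1. They were taken by name from 24453 genes in the expression table, and all 10 were present. The last pair are neither surface, secreted nor Golgi proteins: Sgk1 encodes an intracellular kinase and Crybb1 a soluble crystallin. The list was drawn up with results of the ageing comparison already known, so the values of these genes in that comparison are a description: the fit's calls are quoted as counts, and no p-value is given for them. Microglia were isolated from whole brains of untreated C57bl6 mice with magnetic beads, and their total RNA was amplified and sequenced. One comparison set 3 libraries from mice aged 15 months against 3 from mice aged 10 weeks. The other set 2 libraries labelled Rab7 deltaMG, described as a Rab7 null mutant, against 2 labelled Rab7 Control, all at 3 months. Rab7 is a GTPase that directs late endosomes to lysosomes. The labels name neither the recombinase nor the promoter that drives it, nor whether the controls carry floxed alleles or a recombinase. They do not say whether replicates were separate mice, so each p-value reflects only the spread among these libraries, which may be technical.

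Homeostatic microglia survey the brain parenchyma, and the genes that mark them depend on signalling through the receptor for colony-stimulating factor 1 and through transforming growth factor beta. In ageing and disease models, many of these genes are known to go down while disease-associated genes such as Apoe, Axl and Spp1 go up. The products of the 10 genes do unrelated things, and what they share is their use as microglial signature genes. Their levels in these libraries differed widely.

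Levels are given as RPM, reads scaled to a common library total. The smallest step between values put 6098267 to 9907464 reads behind each library's scaling, of which the listed genes held 18.7% to 23.5%. Rab7 itself stood at 64.2 and 67.5 RPM in the control-labelled libraries and at 72.2 and 79.4 RPM in the deltaMG-labelled ones. It was therefore not lower in the deltaMG-labelled libraries, and both groups are named by their labels throughout. A further 10 microglial markers (C1qa, Csf1r, Cx3cr1, P2ry12 and others) summed to 3330 to 5476 RPM in the 10 libraries. Of the markers of other brain cells, endothelial Cldn5 was at 0 in every library, astrocytic Gfap was at most 0.254 RPM and neuronal Tubb3 at most 0.164 RPM. Others were not at 0: endothelial Kdr reached 4.76 RPM, Pecam1 4.48 RPM and neuronal Snap25 3.76 RPM. The astrocyte markers summed to 29.0 to 56.5 RPM, most of it Slc1a3, a glutamate transporter gene, at 22.7 to 51.4 RPM. A set of 11 neutrophil markers, led by S100a9 and Ngp, summed to 460 to 4301 RPM, with the highest sum in aged replicate 3. Xist, the RNA of the inactive X chromosome, stood at 1715 to 1771 RPM in young and 0.127 to 0.940 RPM in aged libraries. A set of 4 Y-linked genes summed to at most 0.288 RPM in young and 35.7 to 48.7 RPM in aged libraries. Age and sex therefore cannot be told apart. Each library of the Rab7 groups held both kinds of RNA, so none of them is read here as a single mouse. Xist was at 1410 and 924 RPM in labelled control, with Y-linked sums of 19.3 and 25.8 RPM. In labelled deltaMG Xist was at 1171 and 1562 RPM, with Y-linked sums of 20.3 and 9.11 RPM.

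The DNA just upstream of an annotated start is shown for 4 of the 10 genes. Chosen were the Golgi gene Golm1, the start that Rnase4 shares with Ang, and the most CpG-rich start of the kinase gene Sgk1. The lowest gene, Crybb1, was chosen as well. Each line gives the 250 bases before an annotated start, 5′ to 3′ on the gene's own strand, from RefSeq promoters on GRCm38.p6. Capitals mark letters of the TATA motif TATAAA or of GAGGAA, a core bound by the myeloid factor PU.1, on either strand.
Golm1, chr13:59675785-59676034, minus strand: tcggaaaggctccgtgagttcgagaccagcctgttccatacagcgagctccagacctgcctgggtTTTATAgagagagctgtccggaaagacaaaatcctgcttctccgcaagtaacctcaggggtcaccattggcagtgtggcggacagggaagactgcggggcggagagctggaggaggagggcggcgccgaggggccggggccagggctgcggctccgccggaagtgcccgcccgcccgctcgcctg
Rnase4 and Ang, chr14:51090827-51091076, plus strand: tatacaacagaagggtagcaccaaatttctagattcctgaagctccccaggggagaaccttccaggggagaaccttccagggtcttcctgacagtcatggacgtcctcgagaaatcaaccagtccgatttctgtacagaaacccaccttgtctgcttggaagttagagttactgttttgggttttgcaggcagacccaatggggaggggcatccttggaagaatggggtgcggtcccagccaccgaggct
Sgk1, chr10:21994416-21994665, plus strand: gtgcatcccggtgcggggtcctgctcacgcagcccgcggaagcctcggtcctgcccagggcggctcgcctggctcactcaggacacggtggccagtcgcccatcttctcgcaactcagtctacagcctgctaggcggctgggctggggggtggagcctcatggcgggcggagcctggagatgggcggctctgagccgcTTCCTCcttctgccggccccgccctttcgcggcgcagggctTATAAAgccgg
Crybb1, chr5:112255570-112255819, plus strand: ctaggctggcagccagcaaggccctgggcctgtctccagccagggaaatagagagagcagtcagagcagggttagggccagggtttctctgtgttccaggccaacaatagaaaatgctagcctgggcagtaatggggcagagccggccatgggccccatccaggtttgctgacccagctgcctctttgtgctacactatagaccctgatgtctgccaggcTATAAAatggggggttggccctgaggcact
The windows of Golm1 and Sgk1 held 20 and 22 CpG dinucleotides, against 5 for Rnase4 and 1 for Crybb1. The median over all 32851 promoters was 6 CpG. The table held 14 starts for 8 of the 10 genes, 6 of them for Sgk1 and 2 for Rnase4. Some windows held bases annotated as exon: 238 of 250 for Sparc, 136 for Fcrls, 89 for Slc2a5, 27 for Golm1 and 5 for Crybb1. The Sparc window lies inside the annotated gene. GAGGAA occurred in 5 of the 14 windows, those of Fcrls and of 4 Sgk1 starts, and in 23.25% of all promoters. TATAAA occurred in 5 windows, of Fcrls, Crybb1, Golm1 and 2 Sgk1 starts, and in 12.37% of all promoters. CACGTG, the E-box bound by lysosomal regulators such as TFEB, was in 1 Sgk1 window and in 6.02% of promoters. The letters TGANTCA (AP-1), the MEF2 motif, TTGCNNAAT (C/EBP) and GTCTAGAC (SMAD palindrome) were in none of the 14 windows and in 6.75%, 3.2%, 2.11% and 0.17% of all promoters. These matches describe letters in the windows and were not tested for use.

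In aged microglia the signature genes stood lower. All 9 genes that passed the filter (at least 10 RPM in at least 2 libraries) had a negative difference between aged and young, with a median log2 difference of -0.63 against -0.05 over all 4151 tested genes, of which 57.2% were negative. The model fitted across all genes (limma, Benjamini-Hochberg adjusted p under 0.05) called 6 of the 9 lower: Tmem119, Sparc, Golm1, Selplg, Rnase4 and Sgk1. It called 6.14% of all tested genes in either direction and 2.99% as lower. Since the list was drawn up from this comparison, nothing is read from that count. It was 2 without young replicate 1, 3 without young replicate 2, young replicate 3, aged replicate 1 or aged replicate 3, and between 4 and 7 without any other library. Crybb1 was not tested, because 1 library alone reached 10 RPM. For 7 of the 10 genes every aged library was below every young one, a pattern found for 15.5% of all tested genes, while 8.41% showed the opposite pattern. Olfml3, Slc2a5 and Crybb1 overlapped. In bulk RNA, fewer microglia in the isolate and less of each RNA per cell cannot be told apart.

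**Figure D1:**
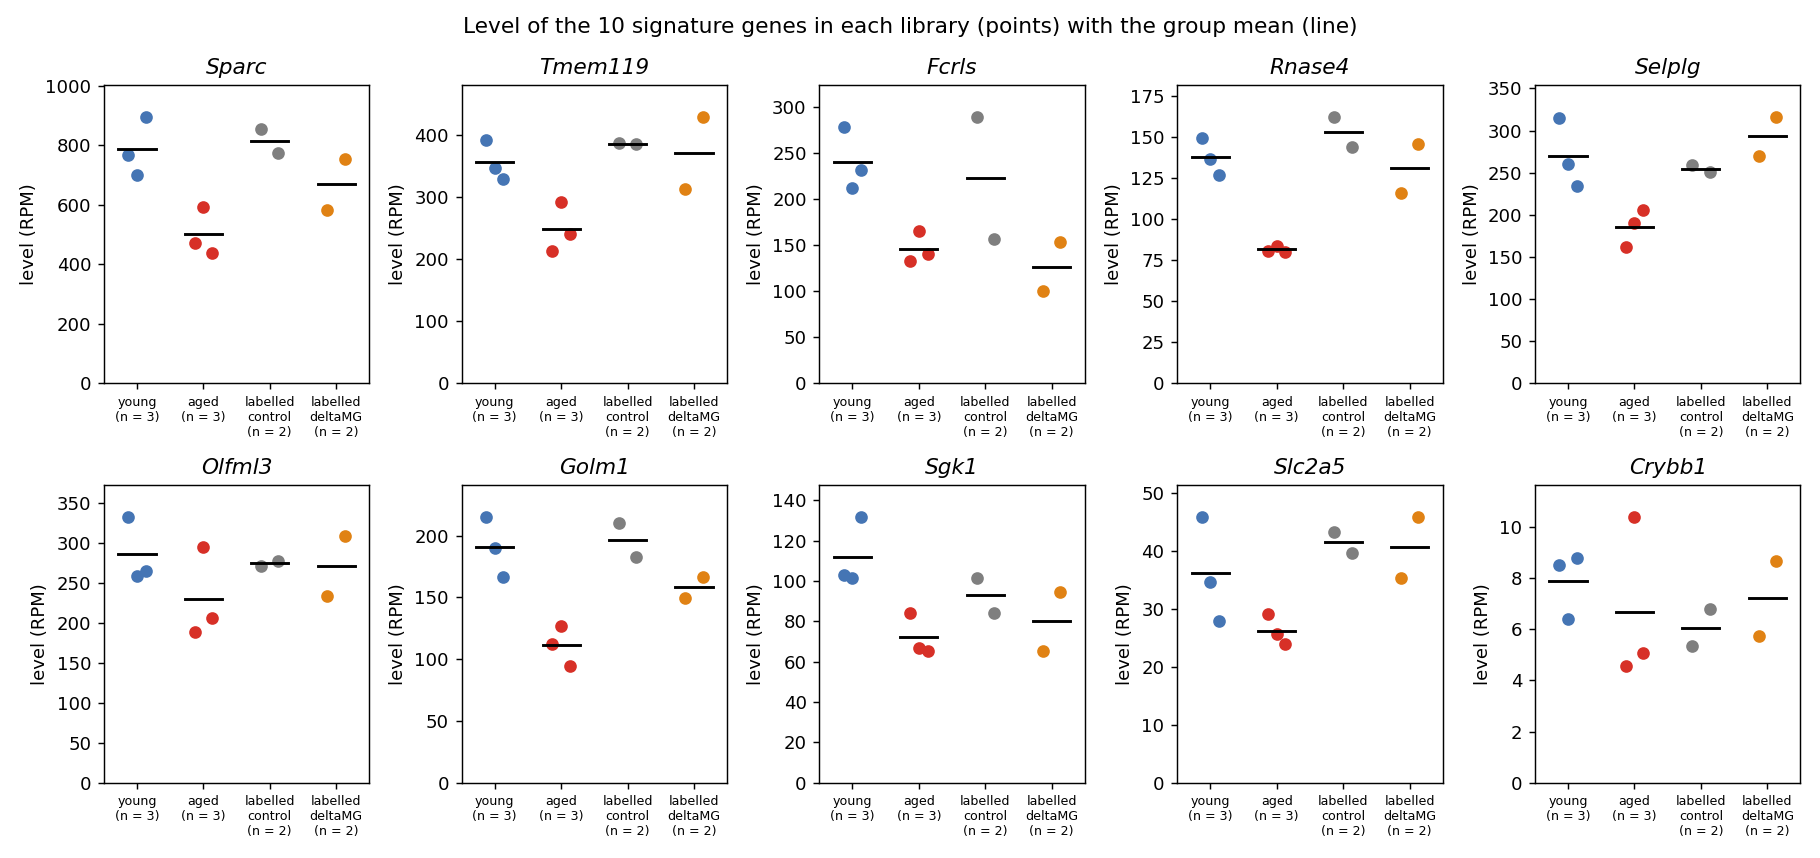
Level of each of the 10 genes (y axis, RPM, starting at 0) in the 10 libraries, grouped on the x axis by label; points are libraries and lines are group means. The aged points lie below the young points for 7 genes and overlap them for Olfml3, Slc2a5 and Crybb1.

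Between labelled deltaMG and labelled control, none of the 9 tested genes was called by limma, where 3.78% of all tested genes were called, 2.58% lower and 1.2% higher. At an unadjusted p under 0.05, 1 of the 9 genes (Fcrls) passed, against 18.8% of all tested genes. The median log2 difference of the 9 was -0.23 against -0.02 over all genes, and 8 of the 9 were negative, against 52% of all tested genes. Without deltaMG replicate 1, 4 of the 9 were negative and their median was 0.03, and with a neutrophil score in the model 5 of the 9 were negative, with a median of -0.04 against -0.13 over all genes. Fcrls, Sparc and Golm1 were lower in both deltaMG libraries than in both controls, as were 26.6% of all tested genes, and Selplg was higher in both, as were 25.2%. Replicate 1 of the deltaMG libraries was below replicate 2 for all 10 genes, so the spread within that pair was wide. That replicate also had the lower sum of the 10 other microglial markers (4267 against 5476 RPM) and the higher neutrophil sum (1822 against 1186 RPM). Its Xist level was lower (1171 against 1562 RPM) and its Y-linked sum higher (20.3 against 9.11 RPM). Whether any of these differences underlies the spread was not tested.

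**Figure D2:**
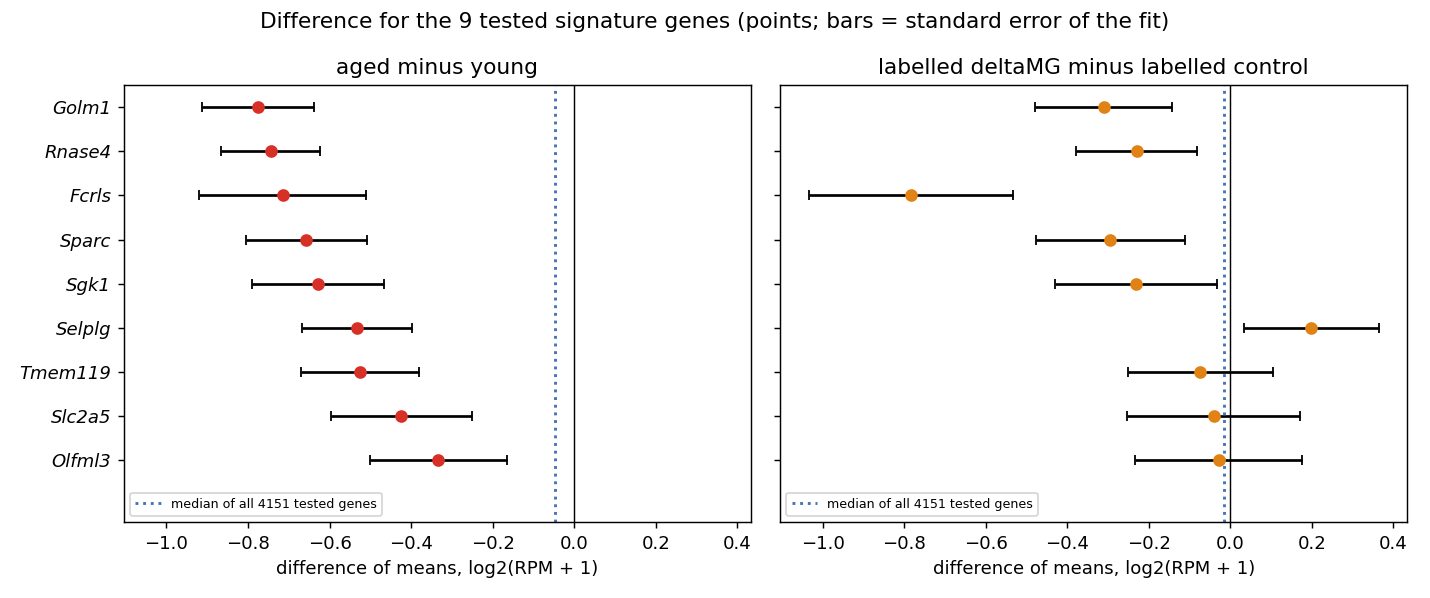
Difference of group means on the log2(RPM + 1) scale (x axis) for the 9 tested genes (y axis), aged minus young on the left and labelled deltaMG minus labelled control on the right; points are fitted differences, bars are standard errors, and the dotted line is the median of all 4151 tested genes. In the left panel all 9 points lie to the left of the dotted line; in the right panel Fcrls lies farthest to the left and Selplg to the right of 0.

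Among the surface proteins, Tmem119, a transmembrane protein used to tell microglia from infiltrating macrophages, stood at 392, 346 and 329 RPM in the young libraries and at 213, 292 and 240 RPM in the aged ones. It was at 387 and 385 RPM in the control-labelled pair and at 313 and 429 RPM in the deltaMG-labelled pair. Every aged library was thus below every other library, whereas the deltaMG pair lay on either side of the controls. Aged minus young, the log2 difference was -0.53 (SE 0.15), on the log2(RPM + 1) scale used for all differences here. Between deltaMG and control it was -0.07 (SE 0.18, 95% interval -0.45 to 0.31, limma adjusted p = 0.888).

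Selplg encodes PSGL-1, the sialomucin ligand of the selectins. Its levels were 315, 260 and 234 RPM in young, 161, 190 and 206 RPM in aged, 259 and 251 RPM in labelled control and 270 and 316 RPM in labelled deltaMG libraries. The aged libraries were the lowest of the 10 and the deltaMG pair was above both controls. With age the log2 difference was -0.53 (SE 0.14), and it was 0.20 (SE 0.17, 95% interval -0.16 to 0.55, limma adjusted p = 0.581) between deltaMG and control. PSGL-1 is also carried by neutrophils, whose marker sum was higher in both deltaMG libraries (1186 and 1822 RPM) than in both controls (460 and 694 RPM). With a neutrophil score in the model, the difference between deltaMG and control was 0.0852 (limma adjusted p = 0.873); since that score stood higher in both deltaMG libraries, neutrophil content and the label cannot be told apart. Selplg lies 18.0 kb from Tmem119 on chromosome 5, on the same minus strand, with no annotated protein-coding gene between them. Tmem119 spans chr5:113793729-113800516 and Selplg chr5:113818536-113832644 (GENCODE M21, GRCm38). On its other side, 9.79 kb away, lies Coro1c, which encodes an actin-binding coronin. Coro1c had means of 15.6 RPM in young and 16.7 RPM in aged libraries (log2 difference 0.09, limma adjusted p = 0.811), and it fell from 29.0 to 16.1 RPM between labelled control and labelled deltaMG (-0.82, limma adjusted p = 0.0268). That call did not hold without any 1 of the 4 libraries (limma adjusted p = 0.0711 to 0.207).

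Fcrls, a scavenger receptor-like relative of the Fc receptors found in rodents, had 278, 213 and 232 RPM in young and 133, 165 and 140 RPM in aged libraries. The controls were far apart, at 290 and 157 RPM, and the deltaMG libraries had 99.8 and 153 RPM. Its lowest group mean was that of labelled deltaMG (126 ± 37.7 RPM, SD, n = 2), against 146 ± 16.7 RPM in aged (n = 3), and the ranges of those groups overlapped. With age its log2 difference was -0.71 (SE 0.21). Between deltaMG and control it was -0.78 (SE 0.25, 95% interval -1.32 to -0.25, limma adjusted p = 0.102). That value rested on control replicate 1: without it the difference was -0.34 (limma adjusted p = 0.702), and without control replicate 2 it was -1.22 (limma adjusted p = 0.0255).

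Slc2a5 encodes GLUT5, a transporter of fructose. It had 45.9, 34.6 and 27.9 RPM in young, 29.1, 25.6 and 23.9 RPM in aged, 43.2 and 39.6 RPM in labelled control and 35.4 and 45.7 RPM in labelled deltaMG libraries. The highest aged library was above the lowest young one, so the groups overlapped. The difference with age was -0.42 (SE 0.17) on the log2 scale, against -0.04 (SE 0.21, 95% interval -0.49 to 0.41, limma adjusted p = 0.952) between deltaMG and control. Of 10 other hexose transporter genes of its family, 2 passed the filter, and 1 was called. Slc2a3, the high-affinity glucose transporter GLUT3, rose from 15.7 ± 6.92 to 39.3 ± 21.0 RPM with age (SD, n = 3 each; log2 difference 1.25, limma adjusted p = 0.0367), and had 11.7 ± 1.25 and 27.8 ± 4.30 RPM in labelled control and labelled deltaMG (n = 2 each; 1.17, limma adjusted p = 0.116). GLUT3 is also abundant in neutrophils, and the neutrophil marker sum was 559 to 1425 RPM in young and 965 to 4301 RPM in aged libraries. With a neutrophil score in the model, Slc2a3 differed by 0.55 with age and was no longer called (limma adjusted p = 0.107). The neutrophil sums of young and aged libraries overlapped, and the cause of the Slc2a3 difference was not tested. The Slc2a3 call with age was lost in 7 of 10 fits that left out a library (limma adjusted p up to 0.114, without young replicate 3). Slc2a1 (GLUT1) had a log2 difference of 0.34 with age (limma adjusted p = 0.344).

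Among the secreted proteins, Sparc, an acidic matricellular glycoprotein that binds collagen, was the most abundant of the 10. It had 767, 700 and 896 RPM in young, 472, 594 and 437 RPM in aged, 856 and 773 RPM in labelled control and 582 and 755 RPM in labelled deltaMG libraries. All aged libraries were below all young ones, and both deltaMG libraries were below both controls. The log2 difference was -0.66 (SE 0.15) with age and -0.29 (SE 0.18, 95% interval -0.68 to 0.10, limma adjusted p = 0.425) between deltaMG and control. Sparc is also made by endothelial cells, and the 8 endothelial markers summed to 4.37 to 9.81 RPM over all libraries. Its nearest relative, Sparcl1, which is abundant in astrocytes, stayed at or below 2.51 RPM.

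Rnase4, a secreted ribonuclease, varied least within the aged group. It had 149, 137 and 127 RPM in young and 80.8, 83.9 and 80.2 RPM in aged libraries. It stood at 162 and 144 RPM in labelled control and 116 and 146 RPM in labelled deltaMG libraries. The aged libraries lay well below all 7 others, while the deltaMG and control ranges overlapped. On the log2 scale Rnase4 differed by -0.74 (SE 0.12) with age and by -0.23 (SE 0.15, 95% interval -0.55 to 0.09, limma adjusted p = 0.451) between deltaMG and control. Rnase4 and Ang, which encodes the ribonuclease angiogenin, are both listed with the start printed above, and 219 bases (13.4%) of the Rnase4 exons are also annotated for Ang, so reads there could have been given to either gene. Ang stood at 25.4, 24.7 and 18.9 RPM in young, 14.01, 18.3 and 18.5 RPM in aged, 27.5 and 29.2 RPM in labelled control and 23.4 and 26.1 RPM in labelled deltaMG libraries. Like Rnase4, it had its highest group mean in labelled control and its lowest in aged libraries, with log2 differences of -0.42 with age (limma adjusted p = 0.136) and -0.19 between deltaMG and control (limma adjusted p = 0.664).

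Olfml3, a secreted olfactomedin-like glycoprotein of the matrix, had the smallest difference with age among the 9 tested genes. It had 333, 259 and 265 RPM in young, 188, 295 and 206 RPM in aged, 271 and 278 RPM in labelled control and 234 and 309 RPM in labelled deltaMG libraries. Aged replicate 2 was above young replicates 2 and 3, and the deltaMG pair lay on either side of the controls. Its log2 difference was -0.33 (SE 0.17) with age, and -0.53 without aged replicate 2. Between deltaMG and control it was -0.03 (SE 0.20, 95% interval -0.47 to 0.41, limma adjusted p = 0.964).

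Golm1 encodes a membrane glycoprotein of the cis-Golgi (GP73), and it had the largest log2 difference with age of the 9 tested genes. It had 215, 190 and 167 RPM in young, 112, 127 and 94.2 RPM in aged, 210 and 183 RPM in labelled control and 150 and 167 RPM in labelled deltaMG libraries. The aged libraries were the lowest of the 10, and both deltaMG libraries were below both controls. The log2 difference was -0.78 (SE 0.14) with age and -0.31 (SE 0.17, 95% interval -0.67 to 0.05, limma adjusted p = 0.344) between deltaMG and control. Of 7 other Golgi genes (Golga2, Golga4, Golgb1, Golph3, Gorasp2, Tgoln1 and Casc4), 5 were tested and none was called in either comparison, with medians of 0.05 with age and 0.01 between deltaMG and control. On the opposite strand, 1297 bases (29.3%) of the Golm1 exons are also annotated for Naa35, an acetyltransferase subunit. Naa35 stood at means of 9.99 RPM in young and 9.60 RPM in aged libraries.

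Sgk1, a kinase induced by serum and glucocorticoids, had 103, 102 and 132 RPM in young and 84.1, 66.6 and 65.4 RPM in aged libraries. It had 101 and 84.3 RPM in labelled control and 65.3 and 94.5 RPM in labelled deltaMG libraries. All aged libraries were below all young ones. The higher labelled control (101.3 RPM) lay just below the lowest young library (101.5 RPM), and the deltaMG range enclosed the lower control. The log2 difference was -0.63 (SE 0.16) with age and -0.23 (SE 0.20, 95% interval -0.66 to 0.19, limma adjusted p = 0.590) between deltaMG and control. Of 14 other glucocorticoid-responsive genes, 9 were tested. The genes named from this list and from the immediate-early genes were chosen after their values were seen, so their p-values are a description. With age, Ddit4, an inhibitor of mTOR complex 1, fell (log2 difference -1.49, limma adjusted p = 0.0221), as did Fkbp5, a co-chaperone of the glucocorticoid receptor (-0.96, limma adjusted p = 0.0496). Cdkn1a, the cell-cycle inhibitor p21, rose (1.35, limma adjusted p = 0.000492), while Tsc22d3 (GILZ) had -0.10 (limma adjusted p = 0.798). The Ddit4 call was lost without young replicate 2, young replicate 3 or aged replicate 1 (limma adjusted p up to 0.0873) and the Fkbp5 call in 8 of 10 fits that left out a library (up to 0.171), while Cdkn1a was called in all 10. Between deltaMG and control none of these 9 was called. Of 15 tested immediate-early genes, which can respond to cell isolation, 1 was called in each comparison: Nr4a1 rose by 0.73 with age (limma adjusted p = 0.0251) and by 0.89 between deltaMG and control (limma adjusted p = 0.0337). Each of those calls was lost in 4 of 10 fits that left out a library. Sgk1 is also made by oligodendrocytes, and their 7 markers summed to 18.6 to 27.8 RPM over all libraries, with Mog at most 0.254 RPM. The related kinase Sgk3 had a log2 difference of 0.34 in both comparisons and was not called (limma adjusted p = 0.232 and 0.380).

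Crybb1, a beta crystallin best known from the eye lens, was the lowest of the 10 and too low for the test. It had 8.51, 6.40 and 8.78 RPM in young, 4.54, 10.4 and 5.08 RPM in aged, 5.35 and 6.77 RPM in labelled control and 5.73 and 8.68 RPM in labelled deltaMG libraries, an estimated 29 to 103 reads per library. The highest and the lowest of these 10 values were both in the aged group. With the filter lowered to 1 RPM in 1 library, the log2 difference was -0.28 (SE 0.26) with age and 0.20 (SE 0.32, limma adjusted p = 0.869) between deltaMG and control. Cryba4, another crystallin gene, 3.30 kb away, reached 1.42 to 4.63 RPM, and Crybb2, Crybb3, Cryba2, Crygs and Crygn were listed at 0 in all 10 libraries.

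The difference between the age contrast and the deltaMG contrast was also fitted. It contains the ageing values that were known when the list was drawn up, so for these genes it is a description. None of the 9 was called by limma, where 4.79% of all tested genes were (2.67% higher and 2.12% lower). The log2 values, age contrast minus deltaMG contrast, ran from -0.73 for Selplg to 0.07 for Fcrls. The count was 1, Selplg, in 6 of 11 alternatives and without young replicate 3 or aged replicate 3.

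Across the 4 groups, aged had the lowest mean for 8 of the 10 genes, the exceptions being Fcrls, lowest in labelled deltaMG, and Crybb1, lowest in labelled control. Aged was the lowest of the 4 group means for 41.4% of all tested genes. For Tmem119, Golm1, Selplg and Rnase4 every aged library was below all 7 others, as for 6.99% of all tested genes. Both counts rest on the ageing values known when the list was drawn up, so nothing is read from them. Neighbouring groups above it overlapped for these 4 genes. The ratio of the highest to the lowest group mean ran from 1.24 for Olfml3 to 1.91 for Fcrls. Within groups, young replicate 1 was the highest for 7 of the 10 genes and aged replicate 2 for 7. Labelled control replicate 1 was the higher for 8 and labelled deltaMG replicate 2 for 10. Young replicates 2 and 3 were the lowest for 5 genes each, as were aged replicates 1 and 3. The summed level of all listed genes was also higher in that control (232363 against 212626 RPM) and that deltaMG library (235463 against 211852 RPM). Aged replicate 2 had the lowest such sum of its group (187237 RPM). The share of all genes with these patterns was not computed.

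Divided by exon length, the 10 genes ranged widely. Sparc led with 180 RPM per kilobase, ahead of Tmem119 (144) in 10 of 10 libraries. Fcrls (79.7) and Rnase4 (74.9) did not separate, since Fcrls was the higher in 7 of 10 libraries. Selplg (57.6), Olfml3 (42.8) and Golm1 (36.5) followed, with Selplg above Olfml3 in 9 and Olfml3 above Golm1 in 8 libraries. Sgk1 (18.3), Slc2a5 (10.3) and Crybb1 (7.13 RPM per kilobase) closed the order, with Slc2a5 above Crybb1 in 8 of 10 libraries. On this scale even Crybb1 was higher than at least 93.3% of the listed genes in every library. Averaged over the 10 libraries, no relative or partner gene looked at stood above its signature gene per kilobase, as the plot of relatives shows. The closest was Fcgr3, an Fc gamma receptor, at 57.1 RPM per kilobase against 79.7 for Fcrls. In single groups and libraries the order could differ: Fcgr3 was above Fcrls in both deltaMG libraries (means of 60.2 against 54.2 RPM per kilobase) and in 1 labelled control, and Slc2a3 was above Slc2a5 in 1 aged library. The most distant nearest relative was Sparcl1 at 0.373 against 180 for Sparc.

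**Figure D3:**
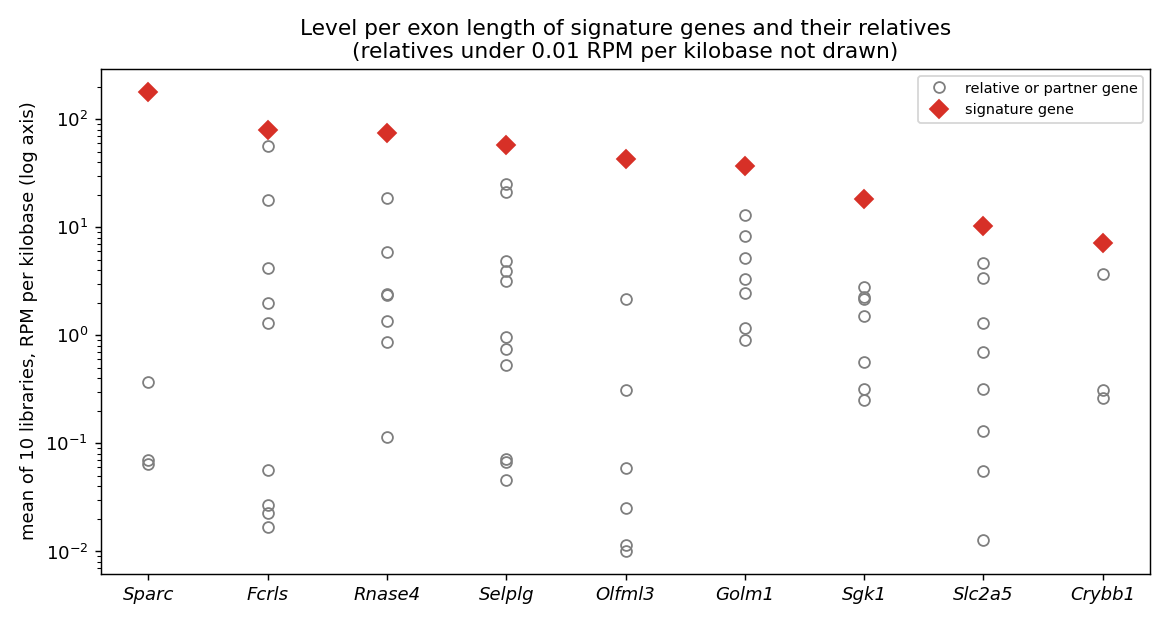
Mean level over 10 libraries per kilobase of exon (y axis, log scale) for 9 signature genes (diamonds) and their relatives or partner genes (open circles), by signature gene on the x axis; Tmem119 has no listed relative. Each diamond lies above all circles in its column, from 180 RPM per kilobase for Sparc to 7.13 for Crybb1.

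The glycosylation enzymes that make PSGL-1 able to bind selectins were examined beside Selplg. Gcnt1, which builds the core on which the selectin-binding sugar is made, was at means of 132 RPM in young, 111 in aged, 205 in labelled control and 152 in labelled deltaMG (log2 differences -0.24 and -0.44, limma adjusted p = 0.241 and 0.101). St3gal6, a sialyltransferase, had -0.48 with age (limma adjusted p = 0.0763) and 0.07 between deltaMG and control. B4galt1, a galactosyltransferase, had -0.41 (limma adjusted p = 0.0908) and 0.05. None of the 5 tested genes of this group was called in either comparison.

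Summed over the 10 genes, the signature stood at 2247 to 2607 RPM in young, 1477 to 1850 in aged, 2301 to 2584 in labelled control and 1871 to 2424 in labelled deltaMG libraries. The 10 other microglial markers summed to 4938 to 5376, 3330 to 3697, 4860 to 5198 and 4267 to 5476 RPM. The ratio of these sums, signature RPM per 100 RPM of the other markers, was 46.4 ± 1.83 in young and 45.4 ± 5.61 in aged (SD, n = 3 each), and 48.5 ± 1.68 in labelled control and 44.1 ± 0.303 in labelled deltaMG (n = 2 each). The lower ratio in labelled deltaMG rests on Cx3cr1, which is among the other markers and stood at 417 RPM in labelled control and 1125 RPM in labelled deltaMG: with the other 9 markers alone the ratio was 52.9 ± 1.29 in labelled control and 57.3 ± 0.840 in labelled deltaMG (SD, n = 2 each). The ranges of the ratio to all 10 markers in young (45.2 to 48.5) and aged libraries (40.0 to 51.2) overlapped. Neutrophil markers went the other way, at 559 to 1425 RPM in young, 965 to 4301 in aged, 460 to 694 in labelled control and 1186 to 1822 in labelled deltaMG. All 11 neutrophil markers had positive differences in both comparisons, with medians of 1.01 and 1.63, and 1 of the 11 was called in each. Monocyte markers (7 genes) summed to 80.5 to 202 RPM in young, 160 to 758 in aged, 65.6 to 104 in labelled control and 175 to 228 in labelled deltaMG libraries. With age 4 of the 6 tested monocyte markers were called higher (median log2 difference 1.29), against 3.16% of all tested genes. Between deltaMG and control none was called (median 1.27). With a neutrophil score as a term of the model, the median difference of the 9 signature genes with age was -0.51 and 3 were called, where 6 were called without it; nothing is read from that count.

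**Figure D4:**
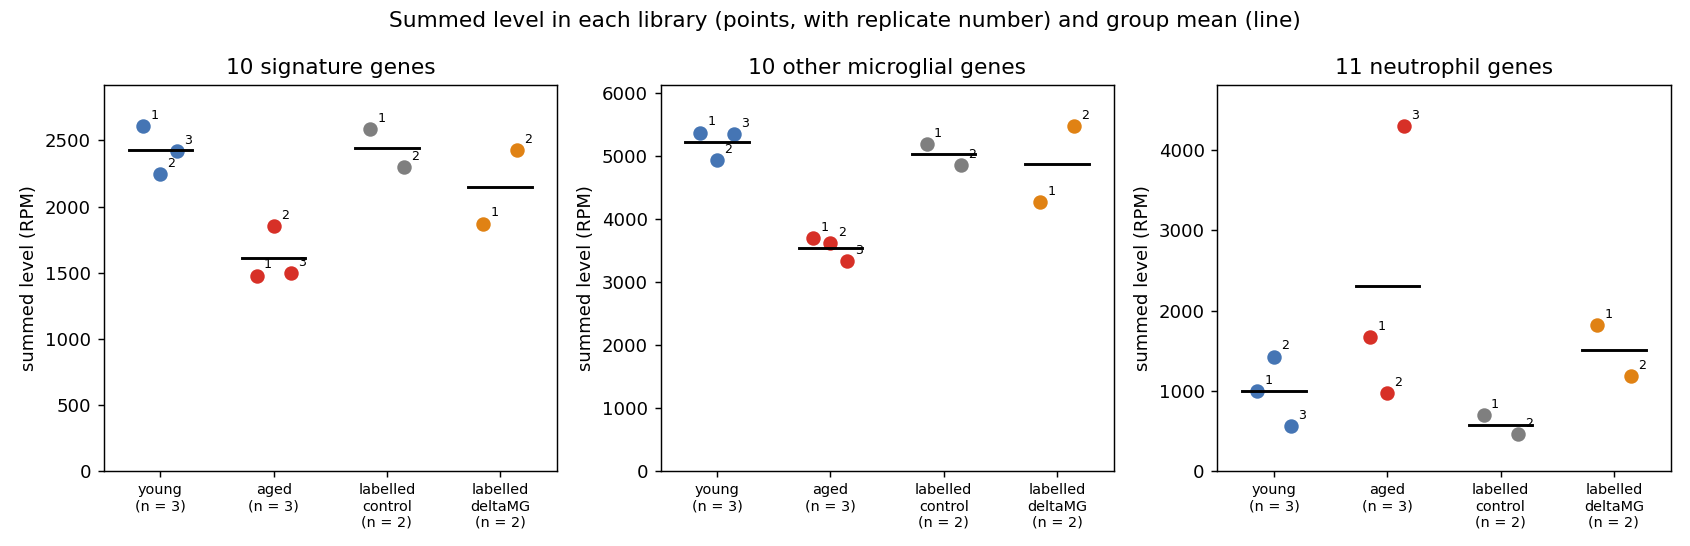
Summed level (y axis, RPM, starting at 0) of the 10 signature genes, 10 other microglial genes and 11 neutrophil genes in each library (points with replicate number, grouped by label on the x axis; lines are group means). The aged libraries are the lowest in the first and the middle panel, and aged replicate 3 is the highest in the neutrophil panel at 4301 RPM.

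Genes with a profile over the 10 libraries most like the mean of the 9 tested signature genes were sought among 679 genes averaging 50 RPM or more. The closest by Pearson correlation of log2 values were Itgav, an integrin subunit (r = 0.953), P2ry13, a purinergic receptor of homeostatic microglia (0.941), Epb41l2 (0.937), the kinase gene Lyn (0.932) and Ctnnd1 (0.928). These correlations over 10 libraries share the libraries and their composition, and no p is given. Each signature gene was also compared with the mean of the other 8. Golm1 (r = 0.948), Rnase4 (0.943), Sparc (0.911) and Tmem119 (0.905) followed the rest most closely, and Sgk1 (0.665) and Fcrls (0.635) least.

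Of 45 further genes known from homeostatic microglia, 44 were tested. This list and that of disease-associated genes were chosen with earlier results of these data known. Their counts and p-values are therefore a description. With age 11 of the 44 were called lower and none higher, where 2.99% of all tested genes were called lower. The median log2 difference of the 44 was -0.38 against -0.05 over all genes. With a library left out, between 3 (without young replicate 1) and 15 were called lower, and it was 6 without young replicate 2 or aged replicate 3 and 7 without either labelled control. With a neutrophil score in the model it was 6. P2ry12, the receptor for ADP that guides microglial processes, fell from 1256 ± 169 to 696 ± 152 RPM (-0.86, limma adjusted p = 0.00645), and Gpr34, a lysophospholipid receptor, from 269 ± 41.0 to 162 ± 15.4 RPM (-0.71, limma adjusted p = 0.00810; SD, n = 3 each). Cx3cr1, the fractalkine receptor, fell with age by 0.63, from 1112 ± 55.3 to 717 ± 26.1 RPM (limma adjusted p = 0.00983, SD, n = 3 each). It was higher by 1.42 in labelled deltaMG than in labelled control, at 1125 ± 226 against 417 ± 27.4 RPM (limma adjusted p = 0.000158, SD, n = 2 each). The deltaMG mean was thus near the young mean, and labelled control was the lowest of the 4 groups. Between labelled control and labelled deltaMG 1 of the 44 was called higher (Cx3cr1) and 3 lower: Serpine2 (-1.33), Ctsd (-0.94) and Trem2 (-0.68). Of all tested genes 1.2% were called higher and 2.58% lower. The median of the 44 was -0.04. With the 2 Rab7 groups fitted alone, these counts were 5 and 9. The Cx3cr1 rise held in all 10 fits that left out a library, whereas the calls of Serpine2, Ctsd and Trem2 were lost in 1, 3 and 6 of them, control replicate 1 being among the libraries left out in each case. Of 22 disease-associated genes tested, 12 were called higher with age and none lower, where 3.16% of all tested genes were called higher. Between labelled control and labelled deltaMG 14 of the 22 were called lower and none higher, where 2.58% of all tested genes were called lower. The first count was 7 without young replicate 1 and 6 without young replicate 3, and the other was 7 without control replicate 1. With a neutrophil score the first was 7 and the other 15, and with the filter of 50 RPM in 3 libraries they were 2 and 6, over fewer genes tested. Spp1 (osteopontin) rose from 1.91 ± 0.606 to 25.5 ± 6.56 RPM with age (SD, n = 3 each; 3.18, limma adjusted p = 8.93e-06). Axl, a receptor kinase for dying cells, rose by 1.67 with age (limma adjusted p = 0.000492) and fell by 2.31 between labelled control and labelled deltaMG (limma adjusted p = 0.000158). Its means were 8.17 RPM in young, 28.2 in aged, 66.6 in labelled control and 12.4 in labelled deltaMG libraries. The disease-associated genes summed to means of 1095, 1497, 2586 and 1320 RPM in these groups, so labelled control was the highest of the 4. Why labelled control differed from young libraries was not tested.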

How the data were processed

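RNA was measured in 10 libraries of microglia. Per the labels' protocols, the Ovation RNA-Seq System V2 amplified the RNA, and an Ion Xpress Plus kit made the libraries. GRCm38, mm10 and FastQC are named in the submitters' processing notes. Aligner, counter, annotation, normalisation and strand setting: not given in the sources used here. Reads of overlapping genes could therefore not be told apart. The deposited values were read as RPM, because low values rose in steps of 0.101 to 0.164 RPM above a constant of 0.0001, which was subtracted. Up to 500 steps, 94.2% to 94.6% of a library's values lay within 0.05 of a whole number, so reads were not recovered and no count model was used.

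Genes reaching 10 RPM in 2 or more libraries (4151) were put on the log2(RPM + 1) scale. limma 3.58.1 (R 4.3.3) fitted 4 groups, with a prior variance that depends on the mean and 6 residual degrees of freedom. The p-values were adjusted by Benjamini-Hochberg over all tested genes, and under 0.05 was a call. Lengths came from GENCODE M21 (23405 symbols matched, 1048 not matched or ambiguous). The fit was tested on simulated data, and 12 alternatives and leaving out each of 10 libraries were run. Named genes are the 10 signature genes, Rab7 and Xist, up to 4 genes of smallest p from each list, relatives, neighbouring or overlapping genes, and the 5 most alike in profile. The glucocorticoid and immediate-early genes named were chosen after their values were seen. The signature genes, partners and lists were chosen with earlier results of these data known. Some genes of the lists are not reported here. Figures were drawn with matplotlib 3.10.9.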

Additional observations from a re-analysis of the deposited data

How the results depend on the processing

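The signature genes that each fit tested (8 with the filter of 50 RPM, 10 with the lowest filter, otherwise 9) had negative differences with age under all 12 alternatives and with each library left out. Main counts with age were 255 genes and 6 of 9 signature genes. For genes they moved to 116 (at least 50 RPM in at least 3 libraries), 121 (each experiment fitted alone), 66 (replicate block) and 141 (neutrophil score), and to between 96 and 422 with a library left out. For signature genes they moved to 2 (replicate block), 2 (no mean-dependent prior variance) and 3 (neutrophil score), and to between 2 (without young replicate 1) and 7 (without aged replicate 2 or either deltaMG library). It was 3 without young replicate 2, young replicate 3, aged replicate 1 or aged replicate 3. Between deltaMG and control the main 157 genes moved to 62 (at least 50 RPM), 246 (equal totals without Rn45s), 510 (experiment alone), 69 (replicate block) and 357 (array weights), and to between 25 and 317. The signature count of 0 became 1, Fcrls, with the experiment fitted alone, and ranged from 0 to 1 with a library left out. The difference of contrasts, 199 genes, moved to 86, 102 (replicate block), 344 (array weights) and 467 (neutrophil score), and to between 71 and 264. Between deltaMG and control, 5 genes changed sign. Tmem119 had 0.012 (quantile normalization) and 0.0559 (neutrophil score), and -0.30 to 0.15 with a library left out. Olfml3 had 0.0068 (equal totals), 0.0823 (quantile) and 0.23 (neutrophil score), and -0.23 to 0.17 with a library left out. Sparc had 0.0323 (neutrophil score). With a library left out, Slc2a5 ranged from -0.22 to 0.14 and Sgk1 from -0.49 to 0.0308; the positive ends, as for Tmem119 and Olfml3, were without deltaMG replicate 1. For Fcrls the difference of contrasts ran from -0.37 to 0.51 with a library left out. The causes were not tested. Further homeostatic genes called lower with age, 11, were 3 (replicate block), 6 (experiment alone), 6 (no mean-dependent prior variance) and 7 (quantile), and disease-associated genes called higher, 12, were 5 (replicate block). Homeostatic genes lower between deltaMG and control, 3, were 1 (replicate block), 1 (no mean-dependent prior variance), 1 (neutrophil score), 6 (array weights) and 0 without control replicate 1. Other scalings changed the split of calls: with age from 131 higher and 124 lower to 222 and 128 (median of ratios), 223 and 106 (equal totals) and 175 and 113 (quantile), and between deltaMG and control from 50 and 107 to 96 and 136, 118 and 128, and 81 and 107. Whether the replicate numbers pair the libraries could not be decided. Deviations from the group mean of same-numbered young and aged libraries had correlations of -0.137, -0.244 and -0.392. These deviations sum to 0 within a group, which constrains the correlations. In the other experiment, with 2 libraries a group, the deviations mirror each other, so both pairs give the same value, 0.116. Depth limits Crybb1, with as few as 29 reads in a library.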
